A study of Mus musculus with 3 samples.

Results

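Histone modifying enzymes, which add chemical groups to histone tails or remove them, were compared between mouse embryonic stem (ES) cells and mouse embryonic fibroblasts (MEF). The members were the genes whose name on the array belongs to the deacetylase families Hdac and Sirt, the demethylase families Jmjd, Kdm and Jarid1, the methyltransferase families Setd, Prmt, Suv, Mll, Ehmt and Smyd, or the acetyltransferase families Myst and Kat. Kdm5d was left out. The names gave 64 genes with 127 probes, of 27962 gene names on the array. Of these, 31 genes encode erasers, the enzymes of families that remove acetyl or methyl groups, and 33 encode writers, the enzymes of families that add them.

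Acetylation of histone lysines loosens chromatin and goes with active genes, and deacetylases reverse it. Methylation acts by position: at lysine 4 of histone H3 (H3K4) it marks active promoters, while at lysines 9 and 27 of the same histone (H3K9, H3K27) and at lysine 20 of histone H4 (H4K20) its higher states go with silent chromatin. ES cells are known for open chromatin and for H3K9 demethylases and methyltransferases that act in self-renewal and differentiation. Many of these enzymes also act on proteins other than histones.

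The ES cells, the pluripotent cells of the early embryo, were untreated and grew in Knockout DMEM with fetal bovine serum and leukemia inhibitory factor. The MEF, connective tissue cells of the fetus, grew in DMEM with fetal bovine serum. The labels give no strain or genotype for either. Each of 3 two-colour arrays held RNA of 1 ES cell replicate in Cy3 and MEF RNA in Cy5. With no swap of dyes, a dye effect on a probe cannot be told apart from a difference between the cells. Separate cultures of ES cells are not stated, so the p-values here describe how far 3 arrays scatter, which can be purely technical. The MEF RNA is a single control, and its spread enters no test. The series' design text names the Cy5 RNA mix2 in one place. MEF was taken from the sample labels, and whether that RNA was a mixture is not stated, which bears on every ratio given here.

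All 8 pluripotent cell markers were called higher in ES cells (median log2 ratio 3.89) and all 8 fibroblast markers lower (median -5.93). The 8 macrophage and leukocyte markers summed to an intensity of 13220.3 to 13714 in ES cells, against 458536 to 487900 in MEF, and 7 of them were called lower. All of these markers exceeded background in both cell types on 3 arrays, so none was at 0. In such bulk RNA, fewer cells of a type and less RNA per cell cannot be told apart. Proliferation genes were called higher in ES cells for 9 of 10 (median 2.27), with summed intensities of 679194 to 690425 in ES cells and 185207 to 189718 in MEF. The part of proliferation or of leukocyte RNA in the ratios of the enzymes was not tested.

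Both the highest and the lowest ratios of the family lay beyond a 4-fold difference. Among writers Prmt8, Suv39h2 and Myst4 had the highest ratios of ES cells over MEF and Setd7 and Prmt2 the lowest, and among erasers Sirt1, Hdac6 and Hdac1 had the highest and Hdac7a and Sirt2 the lowest. Genes were called where the levels differed at least 2-fold with a limma adjusted p below 0.05. On this basis 19 of 64 members (29.7%) were called higher in ES cells, where 20.3% of all 19681 genes tested were. Another 9 members (14.1%) were called lower, where 22.4% of all genes were. In either direction 28 members (43.8%) were called, against 42.7% of all genes, a share near the background. Higher calls made up 67.9% of the members' calls and 47.5% of those over all genes, or 77.8% and 56.2% with median centring in place of loess. The median log2 ratio, ES cells over MEF, was 0.22 for members and -0.050 for all genes tested. With the mean over probes in place of the brightest, 23 members (35.9%) were called, against 40.4% of all genes. Higher calls then made up 60.9% of the members' calls and 48.5% of those over all genes.

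All 64 members were tested, and the brightest probe of each, the one used, exceeded background in ES cells and in MEF on every array. Normalised intensity had a median of 7860 to 7949 over members in ES cells and 6087 to 6183 in MEF. Over all genes tested it was 1755 to 1761 in ES cells and 1901 to 1906 in MEF. Intensity depends on the probe, so these medians do not rank the members against other genes. The SD of a member's log2 ratio between arrays ran from 0.0023 to 0.070, with a median of 0.020. For 62 members the ratio had 1 sign on all arrays. In 58 of 64 members the ES cell and MEF intensities did not overlap, and in 18059 of all 19681 genes tested. A lack of overlap is therefore usual on these arrays. Since 59 of 64 members, and 95.4% of all genes tested, had an adjusted p under 0.05, the 2-fold minimum sets the calls.

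**Figure D1:**
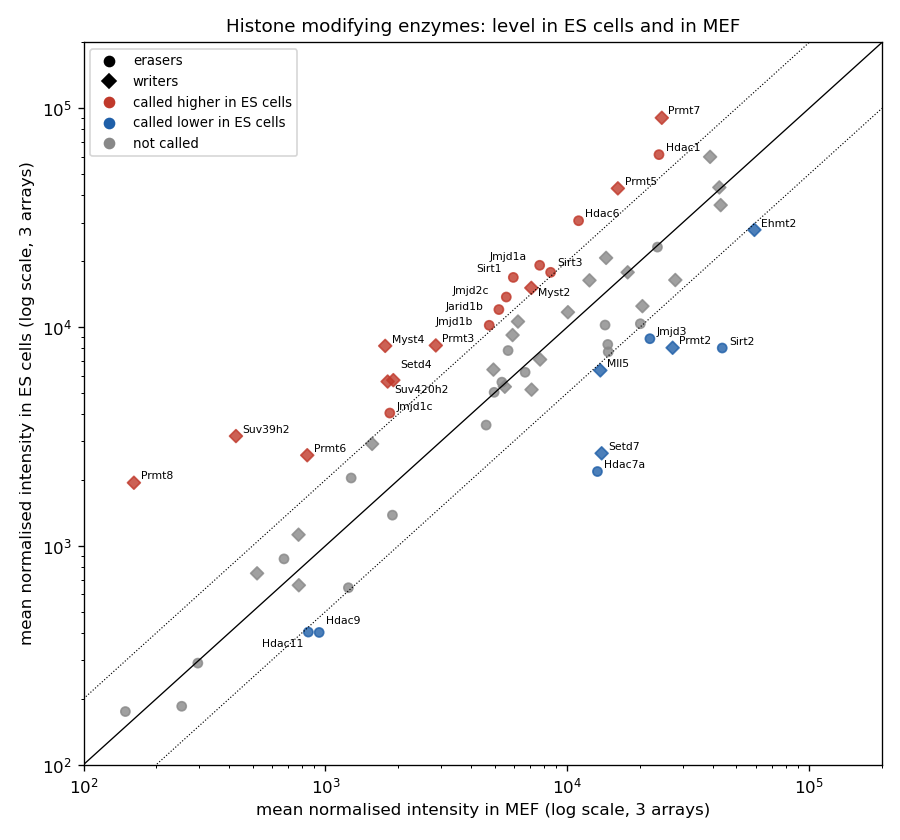
Mean normalised intensity of each enzyme in ES cells (vertical axis) against MEF (horizontal axis), 3 arrays each, both axes logarithmic; circles are erasers, diamonds writers, the solid line marks equal intensity and the dotted lines 2-fold differences. Called genes are named; Prmt8 lies farthest above the line and Hdac7a farthest below. Places along the diagonal depend on the probe and rank no gene against another.

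Erasers had 9 of 31 members called higher in ES cells (29.0%), 5 called lower (16.1%) and 17 not called. Their median log2 ratio was -0.024. In either direction 45.2% of erasers were called, near the 42.7% of all genes tested (20.3% higher, 22.4% lower). The counts of single families given below are to be read beside these shares of all genes. The zinc-dependent deacetylases went both ways, with 2 of 11 higher and 3 lower. Hdac1, the catalytic subunit of the Sin3, NuRD and CoREST repressor complexes, had intensities of 62574, 61691 and 59868 in ES cells, against 24712, 23883 and 23202 in MEF. The log2 ratio was 1.36 ± 0.016 (SD, n = 3 arrays), a 2.57-fold higher level with an adjusted p of 4.58e-07. Its close partner Hdac2 had a log2 ratio of 0.68, below the 2-fold minimum. The difference between the pair was 0.68 ± 0.033 on the log2 scale. Hdac6, a mostly cytoplasmic deacetylase of tubulin, gave 30994, 30333 and 30517 in ES cells and 11003, 11256 and 11135 in MEF. That is a log2 ratio of 1.46 ± 0.032, or 2.75-fold higher (adjusted p = 7.68e-07). For both genes the lowest ES cell array was above the highest MEF array. Such a lack of overlap, in either direction, held for 18059 of all 19681 genes tested.

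Class IIa deacetylases, which shuttle between nucleus and cytoplasm in response to signals and repress MEF2 factors, all had negative ratios, of which that of Hdac4 turned positive under 3 alternatives, at most to 0.16 with median centring in place of loess. Hdac7a, now named Hdac7, had intensities of 2143, 2304 and 2108 in ES cells, against 13259, 13593 and 13112 in MEF. Its log2 ratio of -2.61 ± 0.042 (adjusted p = 3.10e-07) was the lowest of all members, and MEF exceeded ES cells 6.10-fold. Hdac9 gave 418, 393 and 395 in ES cells and 953, 936 and 937 in MEF, a ratio of -1.23 ± 0.034 with an adjusted p of 1.35e-06. Hdac5 at -0.94 and Hdac4 at -0.11 were not called. Hdac11, the sole class IV enzyme, had 398, 413 and 398 in ES cells, against 861, 844 and 843 in MEF. Its ratio was -1.08 ± 0.041 (adjusted p = 2.84e-06), and this call was lost with median centring in place of loess, at -0.89. ES cell arrays lay below MEF arrays without overlap for these 3 called genes, as is usual on these arrays (18059 of all 19681 genes tested). Hdac8 at -0.95, Hdac3 at -0.49 and Hdac10 at -0.37 were not called. Striated muscle, where class IIa enzymes are well known, was represented by 8 marker genes, of which 5 were called lower and 2 higher in ES cells. Their summed intensity was 10531 to 11082 in ES cells and 123571 to 127297 in MEF, and their part in these ratios was not tested.

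Sirtuins, the NAD-dependent deacylases, had 2 of 7 members called higher and 1 lower, with Sirt1 and Sirt2 at opposite ends. Sirt1, a nuclear deacetylase of histones and of p53, had intensities of 16669, 16946 and 16948 in ES cells, against 5984, 6016 and 5939 in MEF. Its log2 ratio was 1.49 ± 0.018, 2.82-fold higher in ES cells, with an adjusted p of 3.93e-07. Sirt2, a mostly cytoplasmic enzyme that deacetylates tubulin, had 8166, 7975 and 7911 in ES cells and 44019.5, 43775 and 43295 in MEF. The ratio was -2.45 ± 0.014, so MEF were 5.45-fold above ES cells (adjusted p = 1.81e-07). On every array Sirt1 was brighter in ES cells and Sirt2 brighter in MEF. The log2 ratios of the pair differed by 3.94 ± 0.030. Sirt3, a mitochondrial sirtuin, was called higher at 1.06, just past the minimum. The mitochondrial Sirt4 (0.013) and Sirt5 (0.061) and the nuclear Sirt6 (-0.029) had ratios near 0, and nucleolar Sirt7 stood at -0.82 without a call.

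The promoters of this pair are shown because they differ in CpG content, the CpG dinucleotides being in capitals. They are the 250 bases before the start of the gene in RefSeq (build GRCm38.p6, strand of the gene), at chr10:63339036-63339285 on the minus strand and chr7:28766502-28766751 on the plus strand. The window of Sirt1 holds 39 CpG and that of Sirt2 13. With the 50 bases after the start added, 98.6% of all promoter windows had fewer CpG than that of Sirt1. For Sirt2 the share was 67.0%, so its promoter is not poor in CpG. Hdac7a, the eraser with the lowest ratio, has windows of 25, 21, 6 and 5 CpG, which are not printed.
Sirt1: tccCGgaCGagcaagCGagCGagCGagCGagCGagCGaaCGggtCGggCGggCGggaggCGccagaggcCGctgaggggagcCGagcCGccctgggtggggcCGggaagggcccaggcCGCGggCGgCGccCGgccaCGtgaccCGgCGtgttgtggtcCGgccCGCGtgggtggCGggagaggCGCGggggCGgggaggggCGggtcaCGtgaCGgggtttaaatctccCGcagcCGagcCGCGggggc
Sirt2: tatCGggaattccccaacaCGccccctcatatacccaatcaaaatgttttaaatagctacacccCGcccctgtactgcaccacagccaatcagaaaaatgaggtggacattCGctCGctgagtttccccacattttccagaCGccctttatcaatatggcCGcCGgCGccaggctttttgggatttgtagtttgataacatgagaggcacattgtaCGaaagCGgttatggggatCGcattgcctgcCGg

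JmjC demethylases had 5 of 13 members called higher in ES cells and 1 lower. The H3K9 demethylases, the Jmjd1 and Jmjd2 genes, accounted for 4 of the higher calls among 7 members. Jmjd1a (Kdm3a), which removes the lower methyl states of H3K9, had intensities of 19175, 18728 and 19547 in ES cells, against 7688, 7475 and 7897 in MEF. The log2 ratio was 1.32 ± 0.0088 (adjusted p = 3.97e-07), 2.49-fold higher. Its relatives Jmjd1c (1.13) and Jmjd1b (1.10) were also called, and the ratios of Jmjd1a and Jmjd1b differed by 0.22 ± 0.026. The Jmjd1c call was lost with its second probe, at 0.59.

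Jmjd2 genes, whose enzymes remove the higher methyl states of H3K9 and in part act on H3K36, did not move as one. Jmjd2c (Kdm4c) had 13778, 13609 and 13746 in ES cells and 5668, 5457 and 5657 in MEF, a ratio of 1.29 ± 0.022 with an adjusted p of 6.36e-07. Jmjd2a had a ratio of -0.95, just short of the 2-fold minimum, Jmjd2b -0.45 and Jmjd2d -0.46, none of them called. Among H3K4 demethylases, Jarid1b (Kdm5b) had 12221, 11972 and 11857 in ES cells, against 5329, 5219 and 5091 in MEF. That was a ratio of 1.21 ± 0.013 (adjusted p = 5.38e-07), with Jarid1a at 0.46 and Jarid1c at -0.024 not called. The call of Jarid1b was lost with its second probe, at 0.63. Jmjd3 (Kdm6b), an H3K27 demethylase known for its induction in activated macrophages, was the one lower call of the family. Its intensities were 9086, 8853 and 8589 in ES cells and 22112, 22119 and 21623 in MEF, a ratio of -1.31 ± 0.026 with an adjusted p of 7.42e-07. The leukocyte markers given above were brighter in MEF, and their part in the Jmjd3 ratio was not tested. Jmjd5 (0.37) and Jmjd4 (0.23) were not called.

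**Figure D2:**
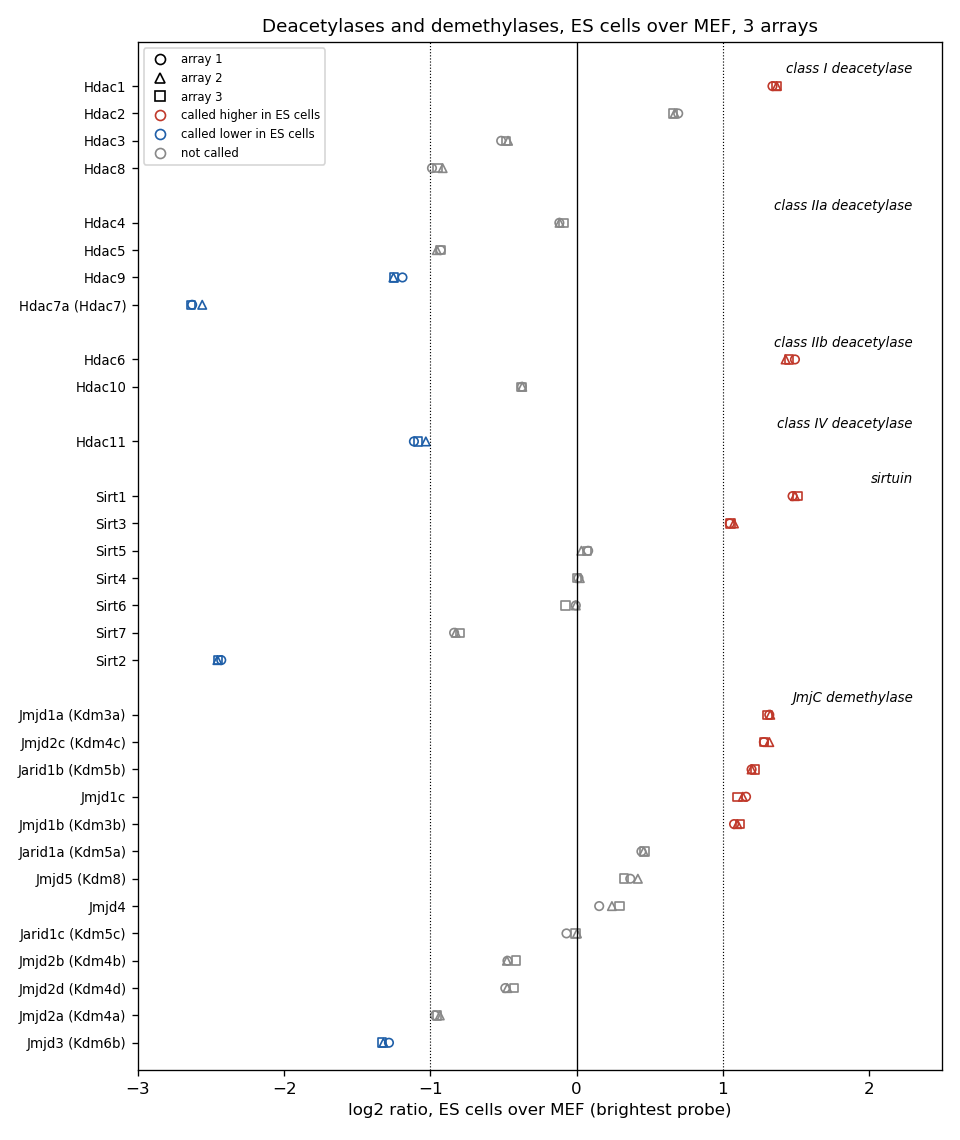
Log2 ratio, ES cells over MEF, of each deacetylase and demethylase on each of the 3 arrays, by family; names in brackets are current symbols, and dotted lines mark 2-fold differences. The 3 arrays nearly coincide for most genes; Sirt1, Hdac6 and Hdac1 lie highest, and Hdac7a and Sirt2 lowest.

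Writers had 10 of 33 members called higher in ES cells (30.3%), 4 lower (12.1%) and 19 not called, with a median log2 ratio of 0.52. The lower calls were 2 with the scanner software's processed signals, median centring or the authors' deposited table. In either direction 42.4% of writers were called, near the 42.7% of all genes tested (20.3% higher, 22.4% lower). Arginine methyltransferases, which methylate histones and many RNA-binding proteins, had 5 of 7 members called higher and 1 lower, with a median of 1.53. Prmt8, a membrane-anchored enzyme otherwise known from the brain, had the highest ratio of all members. Its intensities were 2002, 1923 and 1899 in ES cells, against 165, 156 and 164 in MEF. The log2 ratio was 3.59 ± 0.048, 12.0-fold higher in ES cells (adjusted p = 2.22e-07). In MEF its probe was above background on all 3 arrays but dim, and the scanner software's processed signals gave 4.64. Its closest relative Prmt1, the main asymmetric arginine methyltransferase, stood at 0.62 without a call. Among 7 neuronal markers 2 were called higher in ES cells and 1 lower, with summed intensities of 19147 to 19572 in ES cells and 2737 to 2799 in MEF. In MEF 4 of the 7 were above background on all arrays and Snap25 on 0 of 3, and their part in the Prmt8 ratio was not tested.

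Prmt7, which makes monomethylarginine, had intensities of 90842, 91727 and 88749.9 in ES cells, against 25074, 24786 and 23894 in MEF. The ratio of 1.88 ± 0.019 (adjusted p = 2.76e-07) came back at 1.89 from its other tested probe. Prmt6, which methylates arginine 2 of histone H3, had 2557, 2589 and 2635 in ES cells and 839, 822 and 861 in MEF. Its ratio was 1.63 ± 0.027 with an adjusted p of 4.68e-07, but a probe of nearly the same brightness gave 0.78, and the call was lost with that probe or the mean of its probes. Prmt3, a ribosome-linked enzyme, at 1.53 and Prmt5, which makes symmetric dimethylarginine, at 1.41 were also called higher. Prmt2, a coactivator of nuclear receptors, went the other way with 8169, 7923 and 8021 in ES cells, against 27681, 27284 and 26788 in MEF. This gave -1.76 ± 0.022, so that MEF were 3.39-fold above ES cells (adjusted p = 3.31e-07). Groups did not overlap for any of these genes, as is usual on these arrays (18059 of all 19681 genes tested).

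The SET domain lysine methyltransferases had 3 of 17 members called higher and 3 lower (17.6% each), with a median of 0.0014. Over all genes tested these shares were 20.3% and 22.4%. Suv39h2, which trimethylates H3K9 in pericentric heterochromatin, had intensities of 3152, 3209.8 and 3157 in ES cells, against 422, 412 and 445 in MEF. Its log2 ratio was 2.90 ± 0.068 (7.44-fold, adjusted p = 5.59e-07). Suv39h1, the other enzyme of this pair, stood at -0.049, and the ratios differed by 2.94 ± 0.057. The partners Ehmt1 (GLP) and Ehmt2 (G9a), which together place the lower methyl states of H3K9, also had unlike ratios. Ehmt2 had 27038, 27761 and 28601 in ES cells and 57987, 58562 and 61550.3 in MEF, a ratio of -1.09 ± 0.015 with an adjusted p of 7.47e-07, and Ehmt1 had 0.40 without a call. The call of Ehmt2 was lost with processed signals, median centring and the authors' deposited table, the ratio being -0.88 with median centring.

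Suv420h2 (Kmt5c), which trimethylates H4K20, had intensities of 5620.4, 5628 and 5650.4 in ES cells, against 1833, 1804 and 1786 in MEF. The ratio was 1.64 ± 0.023 (adjusted p = 3.91e-07), but its second probe gave -0.018, so this call rests on 1 probe. Suv420h1 had 0.52 without a call, and its second probe, of nearly the same brightness, gave -0.25. Setd8, which places the first methyl group on H4K20, had 0.22, with 0.74 and 0.95 from its other probes, none of them called. Setd4 was called higher at 1.58. Setd7, which monomethylates H3K4 and several transcription factors, had 2601, 2686 and 2654 in ES cells and 13538, 14039.8 and 14015 in MEF. Its ratio of -2.39 ± 0.011 (adjusted p = 1.81e-07) put MEF 5.24-fold above ES cells. Mll5 (Kmt2e), a SET protein with little known activity of its own, had 6169, 6145 and 6693 in ES cells, against 13353, 13309 and 14412 in MEF. The ratio was -1.11 ± 0.0046 with an adjusted p of 5.32e-07, and the call was lost under 5 alternatives, among them its second probe at -0.89.

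The main H3K4 methyltransferases among the members were not called. Neither was Wbp7 (Kmt2b), a histone methyltransferase that the name rule left out, at 0.73. Setd1a had 0.63, Mll3 -0.12, Mll1 -0.46 and Setd1b -0.71 on the log2 scale, so that Setd1a and Setd1b differed by 1.34 ± 0.029. The direction of Mll3 depended on the probe, since its 6 tested probes ran from -0.41 to 0.49 and its ratio turned positive under 5 alternatives. Setd2, the H3K36 trimethylase, had 0.0014, and Setd3, an actin methyltransferase, -0.26. Setd5 stood at 0.031. None of the 5 SMYD genes was called, with ratios from -0.77 for Smyd2 to 0.91 for Smyd5. All 5 had an adjusted p under 0.05 (limma), and Smyd5 was called at 1.16 and Smyd3 at 1.04 with median centring. Smyd3, Smyd4 and Smyd1 lay between, at 0.76, 0.54 and 0.37.

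MYST acetyltransferases had 2 of 4 members called higher in ES cells and none lower. Myst4 (Kat6b), a catalytic subunit of the complexes with Brpf scaffolds, had intensities of 7732, 8254 and 8609 in ES cells, against 1681, 1762 and 1855 in MEF. The log2 ratio was 2.21 ± 0.014, 4.64-fold higher, with an adjusted p of 1.94e-07. Its second tested probe, much dimmer, gave 0.97 and no call. Its relative Myst3 (Kat6a) had -0.23, and the pair differed by 2.45 ± 0.018. Myst2 (Kat7), the enzyme of the HBO1 complexes, was called at 1.09 by its brightest probe, while its dim second probe gave -0.043. Myst1 (Kat8), which acetylates lysine 16 of histone H4, had 0.52 without a call.

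**Figure D3:**
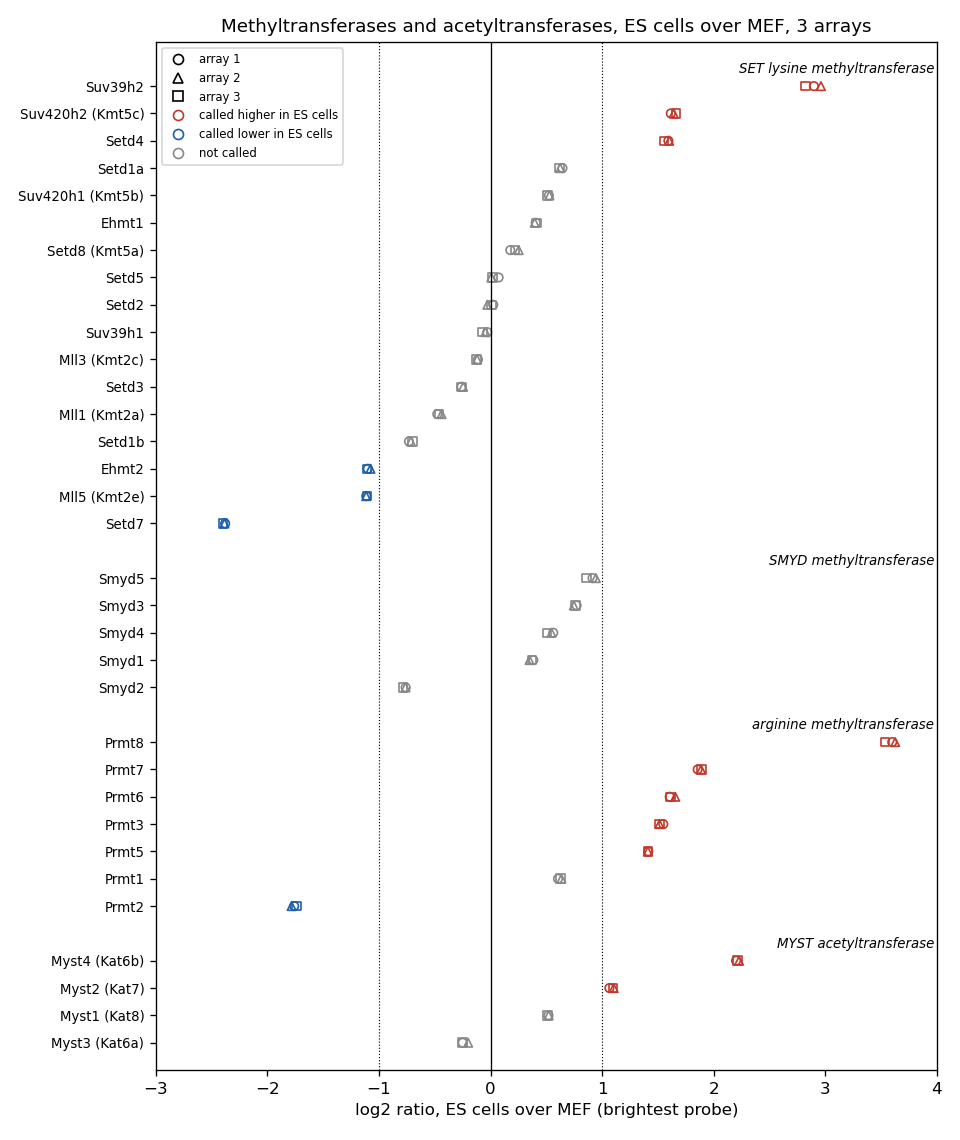
Log2 ratio, ES cells over MEF, of each methyltransferase and acetyltransferase on each of the 3 arrays, by family; names in brackets are current symbols, and dotted lines mark 2-fold differences. Prmt8, Suv39h2 and Myst4 lie highest, Setd7 and Prmt2 lowest, and no SMYD gene passes 2-fold by the loess ratios shown.

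Promoters of 3 writers are shown for the highest ratios, Prmt8 and Suv39h2, and the lowest, Setd7, again as the 250 bases before the gene start in RefSeq (GRCm38.p6, minus strand in each case) with CpG in capitals. Their places are chr6:127769156-127769405, chr2:3474987-3475236 and chr3:51560824-51561073. They hold 37, 27 and 17 CpG in the order given.
Prmt8: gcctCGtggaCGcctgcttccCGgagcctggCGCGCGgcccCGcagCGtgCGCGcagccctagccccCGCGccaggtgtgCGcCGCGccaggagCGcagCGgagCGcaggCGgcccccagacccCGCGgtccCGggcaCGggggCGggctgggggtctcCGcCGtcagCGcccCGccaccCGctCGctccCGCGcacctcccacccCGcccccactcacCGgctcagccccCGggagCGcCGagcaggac
Suv39h2: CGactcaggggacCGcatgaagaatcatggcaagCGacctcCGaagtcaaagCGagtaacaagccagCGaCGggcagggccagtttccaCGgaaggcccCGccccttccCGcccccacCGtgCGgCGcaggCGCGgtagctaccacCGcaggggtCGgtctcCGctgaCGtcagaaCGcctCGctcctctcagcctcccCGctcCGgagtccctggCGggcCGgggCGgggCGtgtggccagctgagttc
Setd7: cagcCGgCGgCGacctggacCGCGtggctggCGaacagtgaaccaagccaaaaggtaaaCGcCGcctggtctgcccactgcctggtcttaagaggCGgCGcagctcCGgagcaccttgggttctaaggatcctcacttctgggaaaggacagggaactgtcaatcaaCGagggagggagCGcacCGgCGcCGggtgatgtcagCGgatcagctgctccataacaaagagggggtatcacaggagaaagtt

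The table of promoters, windows from 250 bases before to 50 after a start, held 72 windows of 53 members. Member windows had a median of 21.5 CpG, against 7 over all 32851 windows, which include those of noncoding genes. The median was 24 over the 24 windows of 17 members called higher in ES cells. It was 20.5 over 12 windows of 7 called lower and 18 over 36 windows of 29 not called. A member with several windows counts with each of them, and Hdac7a alone gave 4 of the 12. Single windows ran from 0 to 56. The letters GGGCGG, searched on both strands, occurred in 68.1% of member windows and 35.7% of all windows. TATAAA occurred in 5.56% of member windows and 13.6% of all, and CACGTG in 11.1% of member windows and 7.15% of all. Of the 5 promoters printed, GGGCGG was found in the windows of Prmt8, Suv39h2, Sirt1 and Sirt2 and CACGTG in that of Sirt1. A match is a description of letters and no sign of binding.

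Probes of a gene did not always give the same ratio. Of 33 members with more than 1 tested probe, 25 had probes of 1 sign, and none had called probes of opposite sign. The median distance between the highest and the lowest probe of a gene was 0.54 on the log2 scale. Of 17 called members with several probes, 5 had all probes called the same way, namely Hdac7a, Jmjd2c, Prmt7, Sirt1 and Sirt2. The Hdac7a probes, at chr15:97793586-97793645 and chr15:97794237-97794296 (mm7), gave -2.61 and -2.60. The Sirt1 probes at chr10:62855795-62855854 and chr10:62838289-62838348 gave 1.49 and 2.33. The 3 Sirt2 probes ran from -2.45 to -2.08. For these 5 genes any tested probe gives the same call.

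The other 12 had at least 1 probe without a call. Setd7 had 2 bright probes in one place, chr3:51639938-51639997 and chr3:51640004-51640063, at -2.39 and -2.30, and a dim one at 0.37. In Suv39h2 the 4 tested probes ran from 0.77 to 2.90, in Prmt3 from -0.55 to 1.82 and in Jmjd1a from 0.12 to 1.91. The mean over probes was 1.90 for Suv39h2 and -1.44 for Setd7, and both calls held. The brightest Suv39h2 probe lies at chr2:3375594-3375653, that of Prmt8 spans chr6:127713135-127713895, and that of Sirt2 lies at chr7:25722588-25722647. Probe coordinates are those of the array files (mm7), and no annotation of this build was used, so exon and transcript of a probe are not given. Among uncalled members, Jmjd2a had a second probe at -1.14 and Smyd3 one at 1.03 that passed. The remaining 11 called members had 1 tested probe.

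**Figure D4:**
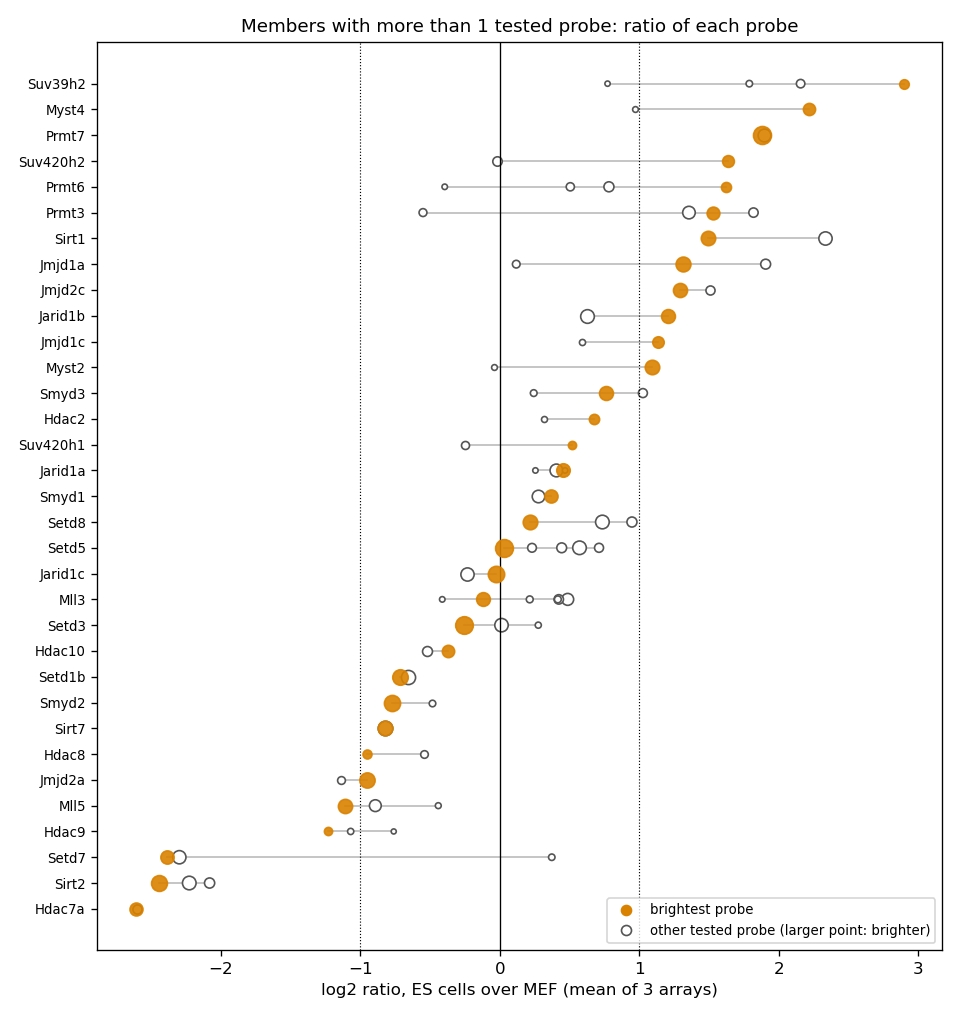
Log2 ratio, ES cells over MEF, of every tested probe of the 33 members with more than 1, as means of 3 arrays; filled points are the brightest probe, open points the others, and a larger point is a brighter probe. Prmt7, Hdac7a and Sirt7 probes coincide, while those of Setd7, Prmt3, Suv39h2 and Prmt6 spread by more than 2 on the log2 scale.

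Other genes of histone modification were taken from 7 lists with 102 tested genes. In ES cells 33 of them were called higher and 9 lower, where 20.3% and 22.4% of all genes were, with a median log2 ratio of 0.44. Among other methyltransferases 4 of 11 were higher and 1 lower (median 0.61). Ezh2, which methylates H3K27 in Polycomb complexes, had 2.40 ± 0.024 (adjusted p = 2.14e-07), Nsd1, an H3K36 methyltransferase, 1.25 ± 0.027 and Ash1l, also an H3K36 methyltransferase, -1.16 ± 0.065. The Nsd1 call was lost with its second probe, at 0.56, and that of Ash1l with median centring, at -0.91. Among genes listed as other demethylases 2 of 10 were higher and 1 lower (median 0.40). Mina (Riox2) had 1.42 ± 0.017, Aof2 (Kdm1a, the H3K4 demethylase LSD1) 1.09 ± 0.021 and Phf2 -2.02 ± 0.024. The other acetyltransferases, among them Htatip (Kat5) of the MYST family at 0.66, had 3 of 12 higher and none lower (median 0.77), or 3 lower by the limma adjusted p without the 2-fold minimum. Hat1, which acetylates newly made histone H4, had 2.78 ± 0.010 (adjusted p = 1.69e-07) and the coactivator Ncoa3 1.55 ± 0.014.

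Partner subunits gave a mixed picture for deacetylases and a mostly higher one for H3K4 methyltransferases. Of 25 deacetylase complex subunits 5 were higher and 4 lower (median -0.025). Sap30 of the Sin3 complex at 2.45 ± 0.015 and Rcor2 of the CoREST complex at 2.32 ± 0.047 were highest, and the NuRD genes Chd3 at -3.77 ± 0.014 and Mbd2 at -1.73 ± 0.013 lowest, Mbd2 at -0.19 by its second probe. Of 10 subunits of the H3K4 methyltransferase complexes, 7 were called higher and 1 lower, with a median of 1.33, while none of Setd1a, Setd1b, Mll1 and Mll3 was called. Dpy30, listed as 2810410M20Rik, had 2.09 ± 0.021 and Wdr5, a core subunit, 2.09 ± 0.032. Men1, which joins Mll1, had -1.10 ± 0.021 and lost its call with median centring at -0.84, and with the processed signals and the authors' deposited table.

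Acetyltransferase complex subunits had 7 of 21 higher and 2 lower (median 0.43). Phf17 (Jade1), a scaffold of the HBO1 complexes, had 2.14 ± 0.012 and Mbtd1 1.89 ± 0.016. Msl31 (Msl3) at -1.97 ± 0.017 and 4121402D02Rik (Msl1) at -1.25 ± 0.021, both partners of Myst1, were lower, Msl31 at -0.95 by its second probe and 4121402D02Rik at -0.97 with median centring. Readers of methylated and acetylated histones had 5 of 13 higher and none lower (median 0.41), or 2 lower without the 2-fold minimum. Uhrf1, which reads H3K9 methylation at replication, had 2.76 ± 0.012 (adjusted p = 1.71e-07) and Cbx1, a heterochromatin protein 1 gene, 1.46 ± 0.028. Ezh2, Hat1 and Uhrf1 are known to be made mainly in dividing cells, and the proliferation genes given above were higher in ES cells alongside them, with their part not tested.

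**Figure D5:**
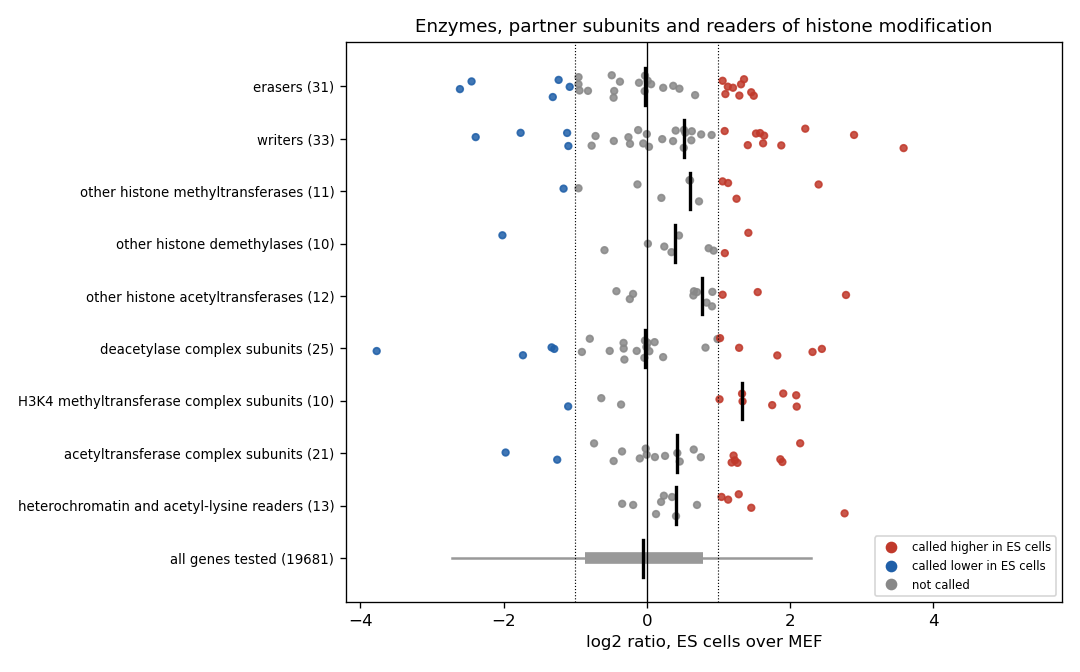
Log2 ratio, ES cells over MEF, of the erasers, the writers and 7 lists of related chromatin genes, 1 point per gene, with the median as a bar and the number of genes in brackets; the grey bar and line of all genes tested span the middle 50% and 90%. Medians run from -0.025 for deacetylase complex subunits to 1.33 for H3K4 methyltransferase complex subunits, beside -0.050 for all genes.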

How the data were processed

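RNA of 3 ES cell replicates (Cy3) and of MEF (Cy5) was read on 3 two-colour whole mouse genome arrays of 1 slide, with Agilent Feature Extraction 9.5.3.1, per the file headers. The deposited intensities are pixel means of spots and pixel medians of local background, per the file headers, and those called processed had background removed and dyes balanced by the same software. A log10 ratio of processed intensities, MEF over ES cells, is also deposited. The authors' deposited log2 value table runs from the same ratio turned round, since 85.4% to 87.8% of probes lay within 0.01 of it. It is not centred (column medians 0.213, 0.0859 and -0.143), and the origin of its other values is unknown. Probe coordinates use mm7, per the file headers.

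Intensities were corrected with normexp (offset 50, which shrinks ratios of dim probes). They were normalised within arrays by loess in limma 3.58.1 (R 4.3.3), with control spots left out of the fit. Outlier spots stayed in the fit and were left out when spots were averaged per probe. Levels are channel intensities after Aquantile. Per array, 68.6% to 70.6% of gene probes were above background in ES cells and 68.2% to 74.0% in MEF. A probe was kept if above background in either channel on all 3 arrays (29502 of 41174), and the brightest stood for its gene name. Mean log2 ratios were tested against 0 with limma (lmFit, eBayes, Benjamini-Hochberg over 19681 genes). The number of arrays limits the precision. Scripts were tested on simulated data. Current symbols and promoters came from RefSeq tables (GRCm38.p6).

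The members and lists were chosen with earlier results of these data known. Per-array values are given for the called members among the 6 highest and 6 lowest erasers and writers, and 2 highest and 2 lowest called genes of each list are named. There were 18 alternatives. Those of signal and normalisation were median centring or added Aquantile, processed intensities, normexp without offset, and raw means without background correction. Probe choices were no filter on dim probes, both channels well above background, the mean over probes, the second brightest probe and outlier spots kept. The others were the authors' deposited value table, array weights, limma's treat, no fold minimum, current gene names and leaving out each array. The processed intensities and the authors' table changed signal, background correction and normalisation together, and the rest changed 1 choice each. Of the lists, Prdm9, Tada2b, Brd1 and Msl2 had no tested probe, and nor had the markers Myog, Ckm and Syt1.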

Additional observations from a re-analysis of the deposited data

How the results depend on the processing

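Of the 28 called members, 19 stayed called under all 17 alternatives other than dropping the fold minimum. The mean over probes and the second brightest probe could not change the ratios of the 11 called members with 1 tested probe. Calls lost were those of Hdac11, Jmjd1c, Jarid1b, Prmt6, Mll5, Ehmt2, Suv420h2, Myst2 and Myst4, and 3 members gained one (Jmjd2a, Smyd3, Smyd5). With the second brightest probe Suv420h2 stood at -0.018 and Myst2 at -0.043, since another probe is read there. Both values were near 0 without a call, and their arrays differed in sign. Writers called lower were 2 in place of 4 with processed signals, with median centring and with the authors' deposited value table, which lost Mll5 and Ehmt2. Without the fold minimum, 9042 of all genes were higher and 9742 lower, with 34 and 25 members, 14 and 14 erasers, 20 and 11 writers, and 65 and 30 other chromatin genes. Median centring moved the median of all genes to 0.11, beside -0.050 with loess. It moved the higher share of called members to 77.8%, beside 67.9%, and that of all called genes to 56.2%, beside 47.5% (52.2% with processed signals). With the mean over probes or the second brightest probe, 23 members (35.9%) were called, against 40.4% and 40.5% of all genes. The higher share of called members was then 60.9%, beside 48.5% and 49.1% of all called genes. Among uncalled members, Hdac4, Sirt6, Jarid1c, Mll3, Setd2, Setd3, Suv39h1 and Suv420h1 changed sign under 1 to 5 of the 17 alternatives. Member counts were 19 higher and 9 lower without any 1 array. Each ratio sets ES cells against MEF RNA on the same array, which pairs the channels by array. The test of the ratios against 0 uses this pairing. No further pairing was possible because, across arrays, the ratios form 1 group, with no other group that shares its replicate numbers.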
